A study of Mus musculus with 10 samples.

Results

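Bone morphogenetic proteins (BMPs) and transforming growth factor beta (TGF-beta) are secreted ligands of 1 family, and 10 genes that carry or answer their signal are described here in fully grown mouse oocytes. The genes were chosen by name, and their 20 probe sets were found by the platform's gene symbol among 18193 genes measured. The choice was made with the difference between the groups in view, so that difference is given for these 10 genes as a description, with no test. A gene is represented by its brightest probe set, the one with the highest mean over all 10 arrays.

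The study compared fully grown oocytes at the germinal vesicle (GV) stage from non-transgenic control mice, 4 samples, with those of mice carrying an RNA interference transgene against basonuclin (Bnc1), a zinc finger protein of germ cells and keratinocytes, 6 samples. Each sample was RNA of about 50 oocytes of 1 mouse on 1 array, and is named here by the replicate number of its label: replicates 1, 2, 7 and 8 are non-transgenic, and replicates 4, 5, 6, 11, 12 and 13 carry the transgene. The transgene is described as acting in oocytes only. Its promoter, the number of transgenic lines, and the strain and age of the mice are not given in the sources used here.

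Ligands of the BMP branch bind receptor kinases that phosphorylate Smad1 and Smad5, and these enter the nucleus with Smad4. There they act on target genes, of which the Id genes are the best known. Id proteins have a helix-loop-helix but no basic region, so they pair with basic helix-loop-helix (bHLH) factors and keep them off DNA. Smad6 and Smad7 are inhibitory Smads that are themselves induced by the signal, and Tgif1 and Skil encode repressors that bind Smads of the TGF-beta branch. Oocytes both secrete ligands of this family and carry receptors for it.

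Values are log2 of the deposited intensity, and a log2 difference is RNAi-transgenic minus non-transgenic. A log2 value of 5, an intensity of 32, was used as the level above which a probe set counts as measurable, since the values carry no detection flag. A probe set was tested where at least 4 of 10 arrays lay above it. Array medians were intensities of 17.5 to 20.1. Bnc1 averaged 11.57 ± 0.15 (SD, n = 4) without and 3.85 ± 0.21 (SD, n = 6) with the transgene, so each sample matched its label. All 13 measured oocyte markers passed the filter, and their summed intensity was 179961 to 194695 in non-transgenic and 176299 to 215415 in transgenic samples. Of these 13, 1 was higher and 2 were lower in transgenic samples at a limma adjusted p below 0.05. Over all genes tested, 18.9% were higher and 18.3% lower.

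Of the 10 genes, 7 passed the filter and 3 (Id1, Smad6 and Skil) did not. Id4 and Tgif1 passed with no non-transgenic sample above the level and Id3 with 1, so these 3 genes entered only through the group in which they were high. Id2, Smad7, Smad1 and Smad5 were above the level in every sample. The groups did not overlap for 6 of these 7 genes, Smad5 being the exception, each with higher values in transgenic oocytes. Of all 10590 genes tested, 28% did not overlap and 14.8% did so with higher values in transgenic oocytes. Nothing is read from this count, as the genes were chosen on this contrast.

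**Figure D1:**
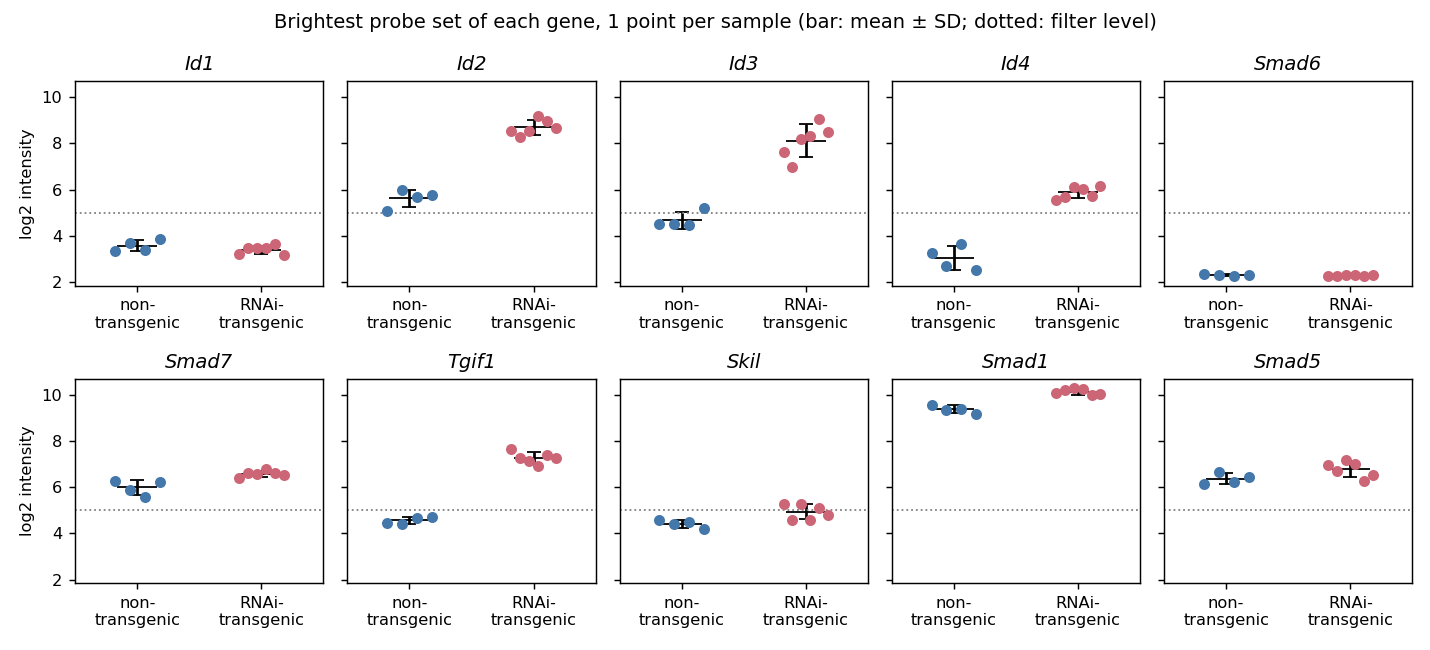
Log2 intensity of the brightest probe set of each of the 10 genes, with 1 point per sample, the mean and SD per group as bars, and log2 5 as a dotted line. Id2, Id3, Id4 and Tgif1 sit far apart between the groups, Smad1 and Smad7 apart by less than 1 log2 unit, and Id1 and Smad6 lie under the dotted line in all 10 samples.

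The stretches of 250 bases before the start sites of Id2, Id3 and Id4 are shown because these were the 3 Id genes with higher values in transgenic oocytes. They were taken from RefSeq (GRCm38.p6) and are written 5′ to 3′ on the strand of the gene. Capitals mark CAGAC or its other strand GTCTG, the core to which Smads bind, and GGCGCC, a GC-rich element known from BMP-responsive genes. Id2 lies at chr12:25096093-25096342 (minus strand), Id3 at chr4:136143572-136143821 (plus strand) and Id4 at chr13:48260866-48261115 (plus strand).
Id2: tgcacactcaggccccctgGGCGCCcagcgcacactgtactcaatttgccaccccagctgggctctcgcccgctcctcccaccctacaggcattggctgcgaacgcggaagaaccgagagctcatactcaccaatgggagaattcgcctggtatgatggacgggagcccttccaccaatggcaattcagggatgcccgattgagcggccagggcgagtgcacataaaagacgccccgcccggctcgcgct
Id3: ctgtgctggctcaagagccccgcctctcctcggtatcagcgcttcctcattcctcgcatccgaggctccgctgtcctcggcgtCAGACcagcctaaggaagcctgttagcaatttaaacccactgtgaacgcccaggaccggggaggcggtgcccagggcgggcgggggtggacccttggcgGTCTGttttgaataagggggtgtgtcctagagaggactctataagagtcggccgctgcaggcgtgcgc
Id4: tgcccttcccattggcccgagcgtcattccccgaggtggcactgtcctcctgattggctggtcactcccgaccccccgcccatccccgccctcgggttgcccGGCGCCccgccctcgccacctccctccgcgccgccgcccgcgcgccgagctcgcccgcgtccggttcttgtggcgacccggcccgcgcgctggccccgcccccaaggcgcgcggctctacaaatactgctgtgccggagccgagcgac

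Id3 held CAGAC at bases -167 to -163 from the start and GTCTG at -68 to -64. Id2 held GGCGCC at -231 to -226 and Id4 at -148 to -143, and neither held CAGAC on either strand in this window. Of 32817 promoter windows of the same length, 42.2% held CAGAC on either strand and 9.59% held GGCGCC, which reads the same on both strands. The E-box CANNTG, to which bHLH factors bind, was in 66.2% of windows. It occurred 1 time in the Id2 window, at -196 to -191, and not in those of Id3 and Id4. No match of CAGAC overlapped one of CANNTG in the windows of these genes. The 3 windows were 62.8%, 62.8% and 75.6% G or C for Id2, Id3 and Id4, with a median of 52.4% over all windows. Windows were found for 7 of the 10 genes, the others being Id1, Skil and Smad7. A match is a description of these letters only.

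Id2, Id3 and Id4 were all low in non-transgenic oocytes and higher in every transgenic sample. Id2, an Id protein known from many progenitor cells, had its brightest probe set (1435176_a_at) at log2 5.09, 5.97, 5.67 and 5.75 in non-transgenic replicates 1, 2, 7 and 8. In the 6 transgenic samples it ran from 8.27 to 9.21 with a median of 8.61. The groups lay far apart, with replicates 11 and 12 the highest. The means were 5.62 ± 0.38 (SD, n = 4) and 8.70 ± 0.34 (SD, n = 6), a log2 difference of 3.08 (SE 0.23), or 8.45-fold. This difference lies at the 99.0 percentile of those of all tested genes. Nothing is read from that rank, as Id2 was chosen on this contrast.

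A further Id2 probe set (1422537_a_at) gave a similar picture at a lower brightness. It averaged 4.52 ± 0.48 in non-transgenic oocytes, where only replicate 1 was above the level, and 7.04 ± 0.37 in transgenic oocytes. It was at least 4.07-fold higher with values under the level set to it. The third (1453596_at) lay between 2.67 and 2.90 on all 10 arrays, below the level, and says nothing of Id2.

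Id3 is a close relative of Id1 and Id2 and has 1 probe set here (1416630_at). It was at 4.50, 4.52, 4.46 and 5.22 in non-transgenic replicates 1, 2, 7 and 8, of which only replicate 8 was above the level. In transgenic samples it ran from 7.00 to 9.04 with a median of 8.26. The groups did not overlap, and the transgenic samples were less alike than for Id2. The means were 4.68 ± 0.36 (SD, n = 4) and 8.11 ± 0.71 (SD, n = 6). With values under the level set to it, Id3 was at least 8.32-fold higher.

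The 3 transgenic samples numbered 11 to 13 were the 3 highest for both Id2 and Id3. Their mean was 8.95 for Id2 and 8.62 for Id3, against 8.45 and 7.60 in those numbered 4 to 6. Samples numbered 1 to 6 and 7 to 13 are not called batches by any label. The difference for Id2 was 2.92 within the first range and 3.24 within the second. For Id3, of whose non-transgenic values only replicate 8 was above the level, no difference within a range is given.

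Id4, best known from spermatogonial stem cells and the nervous system, was under the level in every non-transgenic sample and above it in every transgenic one. Its brightest probe set (1423259_at) was at 3.25, 2.69, 3.66 and 2.53 in non-transgenic replicates 1, 2, 7 and 8. In transgenic samples it ran from 5.57 to 6.15 with a median of 5.88. The fitted difference of 2.84 starts from values that have no firm order, and against the level Id4 was at least 1.84-fold higher. The next probe set (1423260_at) averaged 4.26 ± 0.34 (SD, n = 4) and 4.96 ± 0.38 (SD, n = 6) and was above the level in only 2 transgenic samples. The third (1450928_at) was below it everywhere, so Id4 rests mainly on 1 probe set.

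Id1, the Id gene most often used as a readout of BMP signalling, was not measurable in either group. Its only probe set (1425895_a_at) was at 3.36, 3.70, 3.39 and 3.84 in non-transgenic replicates 1, 2, 7 and 8 and from 3.18 to 3.63, with a median of 3.45, in transgenic samples. All 10 values lie below the level, and no fold is given. The 4 Id genes thus did not look alike on these arrays, though a probe set that fails to report cannot be told apart from a low mRNA.

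The inhibitory Smads gave a modest difference for Smad7 and no measurable value for Smad6. Smad7 blocks receptors of both branches. Its brightest probe set (1423389_at) was at 6.29, 5.88, 5.57 and 6.25 in non-transgenic replicates 1, 2, 7 and 8 and from 6.40 to 6.78, with a median of 6.60, in transgenic samples. The groups did not overlap, but replicate 1 (6.29) came within reach of the lowest transgenic sample (6.40). The means were 6.00 ± 0.34 (SD, n = 4) and 6.59 ± 0.12 (SD, n = 6). Their difference of 0.59 (SE 0.18) lay at the 87.5 percentile of tested genes, a rank given as description only. Within samples 1 to 6 it was 0.45 and within samples 7 to 13 it was 0.72.

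The other Smad7 probe set (1443771_x_at) did not reach the level in any of the 4 control samples, at 4.40 ± 0.22, and was above it in all 6 transgenic samples, at 5.69 ± 0.22, at least 1.62-fold higher. Its suffix marks probes that can also bind other transcripts. The size for Smad7 therefore differed between probe sets, with the same direction. Smad6, which acts mainly on the BMP branch, lay between 2.24 and 2.35 on all 10 arrays with its single probe set (1422771_at) and was not measurable.

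Of the nuclear repressors, Tgif1 was measurable only in transgenic oocytes, and Skil was under the level in most samples. Tgif1 encodes a homeobox repressor that binds Smad2 and Smad3. Its single probe set (1422286_a_at) was at 4.47, 4.41, 4.68 and 4.73 in non-transgenic replicates 1, 2, 7 and 8, all just under the level. In transgenic samples it ran from 6.92 to 7.68 with a median of 7.27. The spread within each group was small, at 4.57 ± 0.16 (SD, n = 4) and 7.28 ± 0.25 (SD, n = 6), and the groups lay far apart. Tgif1 was at least 4.85-fold higher in transgenic oocytes, with values under the level set to it.

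Skil encodes SnoN, a repressor that TGF-beta signalling first degrades and then induces. Its brightest probe set (1452214_at) was at 4.57, 4.40, 4.51 and 4.18 in non-transgenic replicates 1, 2, 7 and 8 and from 4.58 to 5.29, with a median of 4.95, in transgenic samples. Only 3 transgenic samples were above the level, so Skil did not pass the filter. The highest non-transgenic and the lowest transgenic sample nearly touched. The other probe set (1422054_a_at) was at 4.23 ± 0.10 and 4.20 ± 0.06, below the level throughout.

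Smad1, which carries the BMP signal itself, was well above the level in all samples and higher in transgenic oocytes in each of its 3 probe sets. The brightest (1459843_s_at) was at 9.58, 9.35, 9.41 and 9.18 in non-transgenic replicates 1, 2, 7 and 8 and from 9.98 to 10.30, with a median of 10.15, in transgenic samples. The groups did not overlap. The means were 9.38 ± 0.16 (SD, n = 4) and 10.14 ± 0.13 (SD, n = 6), a difference of 0.76 (SE 0.10), or 1.69-fold. On the linear scale the intensity was 670.0 ± 76.0 (SD, n = 4) and 1133 ± 102 (SD, n = 6).

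The other probe sets of Smad1 gave differences of 1.17 (1448208_at) and 0.68 (1416081_at), neither with an overlap between groups. The difference for Smad1 was thus moderate in size and lay at the 90.5 percentile of tested genes, a rank given as description only. It was 0.73 within samples 1 to 6 and 0.79 within samples 7 to 13. Each of the 3 probe sets was above the level in every sample. The suffix of the brightest marks probes that can match several transcripts, and those of the others do not.

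Smad5, the close relative of Smad1 in the same branch, differed less and its groups overlapped. Its brightest probe set (1451873_a_at) was at 6.15, 6.68, 6.22 and 6.45 in non-transgenic replicates 1, 2, 7 and 8 and from 6.28 to 7.18, with a median of 6.83, in transgenic samples. Transgenic replicates 12 and 13, at 6.28 and 6.52, lay among the non-transgenic values. The difference was 0.39 (SE 0.18). The next probe set (1433641_at) gave 0.32 and the third (1421047_at), close to the level in both groups, -0.04.

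**Figure D2:**
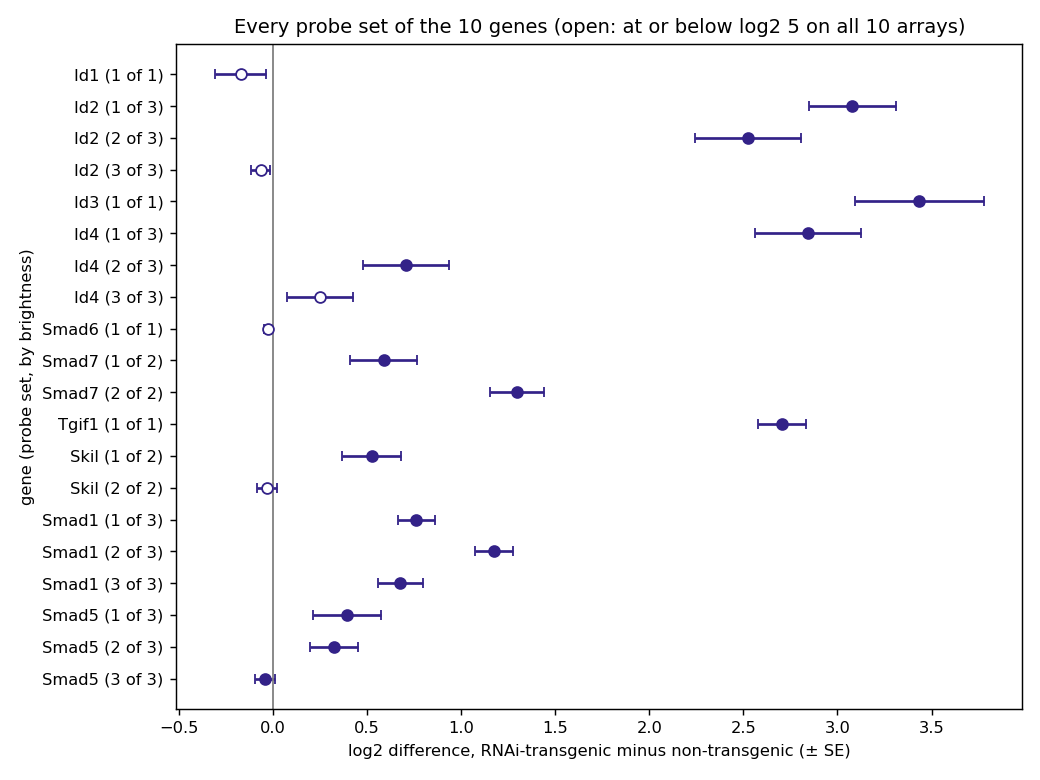
Log2 difference (transgenic minus non-transgenic, ± SE) of each of the 20 probe sets of the 10 genes, ordered by brightness within a gene, with open circles for the 5 probe sets at or below log2 5 on all 10 arrays. Of the 13 probe sets that passed the filter, the groups did not overlap for 10, all with a positive difference, where 26% of 16807 probe sets tested were without overlap and 13.7% were so with higher values. The 3 probe sets of Smad1, above the level in every sample, gave 0.68 to 1.17.

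A higher value in RNA of about 50 pooled oocytes does not tell apart more mRNA per oocyte from more cells that carry it. Granulosa cells, which surround the oocyte, are known to use BMP and TGF-beta signals, so their markers were read beside the Id genes. Of 17 measured granulosa and cumulus markers, 6 (Amh, Amhr2, Inhba, Has2, Ptgs2 and Star) were at or below the level on all arrays. In limma 2 of 9 tested rose and 0 fell, beside 18.9% and 18.3% of all genes tested. The summed intensity of the 17 was 1853 to 2076 in non-transgenic and 1796 to 2893 in transgenic samples. The brightest, Nr5a2, was at log2 9.94 and 9.87 (limma adjusted p = 0.67). Next came Gja1 at 8.01 and 8.56 (adjusted p = 0.24) and Gata4 at 7.98 and 7.61 (adjusted p = 0.13). The 2 that rose were dimmer than these genes, so the sum, led by Nr5a2, says little of them. For 8 endothelial markers the sums were 192.5 to 259.4 and 266.1 to 310.1, which do not overlap, with Pecam1, Cdh5, Emcn, Cldn5, Vwf and Tie1 at or below the level on all arrays. Only 2 endothelial markers were tested. Kdr, a receptor of blood vessels, rose by 1.19 to 6.72 (limma adjusted p = 2.6e-05). Tek, the brightest of the 8, was at 6.80 and 6.89 (limma adjusted p = 0.74).

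For 10 markers of theca and stroma the sums were 264.0 to 350.9 and 344.0 to 457.4, with 6 at or below the level on all arrays, among them Cyp17a1, Lum and Pdgfra. Postn, at 6.68 and 7.48, and Dcn, at 5.22 and 6.33, rose, and Acta2 fell by 0.50. For 9 blood and immune markers the sums were 3401 to 4239 and 2799 to 4462, with Ptprc, Cd68, Lyz2, Hba-a1, Cd74 and Tyrobp at or below the level on all arrays. Laptm5, a lysosomal protein of blood cells, rose by 1.06 from 8.54 to 9.61 (limma adjusted p = 0.022), and Srgn, a proteoglycan of blood cell granules, fell by 0.56 from 11.27 to 10.71 (limma adjusted p = 0.00047). The part of other cells in the values of the Id genes and Tgif1 was not tested. The difference between the 3′ and 5′ Gapdh control probe sets, a sign of RNA length, was 3.72 to 4.34 in non-transgenic and 3.63 to 4.12 in transgenic samples. With it as a covariate the differences were 2.96 for Id2 and 0.78 for Smad1. The same measure for actin was 3.44 to 4.01 in non-transgenic and 3.40 to 5.13 in transgenic samples, with transgenic replicate 6 the highest.

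The other genes of the pathway were taken from 7 lists of ligands, receptors, Smads, regulators and targets, compiled by known function with earlier results of these data known. Of 174 measured genes, 103 were tested. In limma, where 37.2% of all 10590 genes passed an adjusted p of 0.05, 30 rose and 8 fell (29.1% and 7.77%), beside 18.9% and 18.3% of all genes tested, and 65 did not pass. The median log2 difference was 0.13, against -0.03 over all tested genes. The count of those that fell was 4 without non-transgenic replicate 7 and also without non-transgenic replicate 8. Of the 103 genes, 3 were below the level in every non-transgenic sample, so they entered through the transgenic group. The 30 include Bmp7 and Snai1, of these 3, and Tal1, with 1 non-transgenic sample above the level, which are given by their bounds with no p. Of 31 genes named from these lists that passed, 11 also passed both within samples 1 to 6 and within samples 7 to 13. They are Acvr1, Pcsk6, Sost, Ltbp2, Usp4, Gata3, Mesp2, Tcf4, Bmp7, Snai1 and Tal1. Nothing is read from the calls of Bmp7, Snai1 and Tal1, which passed the filter only through the transgenic group. The other 20 of the 31 lost the call in at least 1 of these smaller sets. Most of the 31 were named for a small adjusted p over all samples, and both ranges are parts of those samples. The count of 11 is therefore a description only, and no independent support is read from it.

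**Figure D3:**
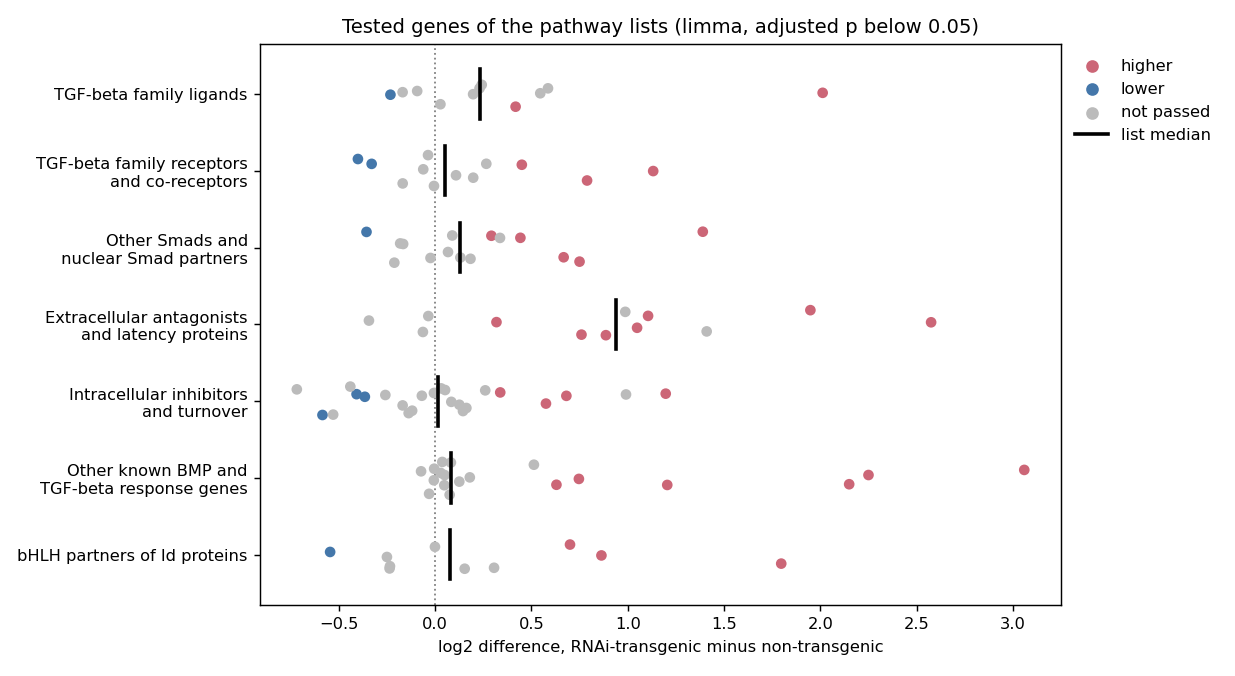
Log2 difference (transgenic minus non-transgenic) of each tested gene of the 7 pathway lists, coloured by whether it was higher, lower or not past an adjusted p of 0.05 in limma, with the median of each list as a black bar. The list of extracellular antagonists and latency proteins has the median farthest from 0, at 0.94, and the other 6 medians lie between 0.01 and 0.23.

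Among 11 tested ligands, 2 rose and 1 fell (18.2% and 9.09%, beside 18.9% and 18.3% of all genes tested). Bmp7, a BMP ligand, did not reach the level in any control sample (4.24, 3.75, 3.77 and 4.17 in replicates 1, 2, 7 and 8) and was above it in all transgenic ones (5.60 to 6.63), at least 1.99-fold higher. Bmp5 rose by 0.42 to 12.11 (limma adjusted p = 0.022), a call lost when non-transgenic replicate 1, 2 or 8 was left out (adjusted p from 0.0583 to 0.0678). Bmp6 changed by -0.23 from 11.53 (adjusted p = 0.0085), a call lost with each array centred on its median (adjusted p = 0.0888). Gdf9 and Bmp15, the main ligands that oocytes secrete, were at 14.26 ± 0.08 and 13.95 ± 0.14 (SD, n = 4) in non-transgenic oocytes. They differed by 0.03 (limma adjusted p = 0.80) and 0.24 (limma adjusted p = 0.070), and Bmp15 passed once transgenic replicate 6 was left out (adjusted p = 0.0164). It also passed when the number range was a covariate (adjusted p = 0.0395). With the mean of its probe sets the Bmp15 difference was -0.056 (adjusted p = 0.571).

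Among 12 tested receptors and co-receptors, 3 rose and 2 fell (25% and 16.7%), shares near those over all genes tested. Acvr1 encodes a type I receptor of BMPs that acts on Smad1 and Smad5. It was at 8.14, 7.94, 8.07 and 7.99 in non-transgenic replicates 1, 2, 7 and 8 and from 8.91 to 9.27 in transgenic samples. It rose by 1.13 (SE 0.09, limma adjusted p = 4.7e-06) without overlap. Bmpr1a, another type I receptor of BMPs, rose by 0.79 to 10.62 (adjusted p = 0.013), but its groups overlapped, with non-transgenic samples from 9.16 to 10.30. This call was lost within samples 7 to 13 (adjusted p = 0.0853) and with the mean of its probe sets (adjusted p = 0.12). Rgmb, a co-receptor of BMPs, rose by 0.45 (adjusted p = 0.0094), but not with the mean of its probe sets (adjusted p = 0.218).

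The receptors that fell were Acvr1b, a type I receptor of activin, and Bmpr2, the type II receptor of BMPs. Acvr1b changed by -0.40 (limma adjusted p = 0.0086) and lost its call with the Gapdh covariate (adjusted p = 0.0769). Bmpr2 changed by -0.33 (adjusted p = 0.031). The call was lost when non-transgenic replicate 7 or 8 or transgenic replicate 4, 5, 6 or 11 was left out (adjusted p from 0.0507 to 0.0948), and with the mean of its probe sets (adjusted p = 0.406). Bmpr1b, a type I receptor known for its role in ovulation rate, was at 11.02 and 10.96 (adjusted p = 0.74).

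Of 15 tested Smads and nuclear partners other than the genes above, 5 rose and 1 fell. These shares were 33.3% and 6.67%, beside 18.9% and 18.3% of all genes tested. Tgif2, the paralog of Tgif1, rose by 1.39 from 9.89 to 11.28 (SE 0.36, limma adjusted p = 0.011), with groups that overlapped. The call was lost with the Gapdh covariate (adjusted p = 0.056) and within samples 7 to 13 (adjusted p = 0.414). Zfp423, a zinc finger partner of BMP Smads, rose by 0.75 (adjusted p = 0.0099) and the AP-1 member Jund by 0.67 (adjusted p = 0.0071). For both genes the groups overlapped. Zfp423 lost its call within samples 1 to 6 (adjusted p = 0.055) and within samples 7 to 13 (adjusted p = 0.069). Jund lost its call within samples 1 to 6 (adjusted p = 0.282). Smad3, of the TGF-beta branch, rose by 0.29 (adjusted p = 0.039), a call lost when non-transgenic replicate 1, 2 or 7 or transgenic replicate 4 or 13 was left out (adjusted p from 0.0506 to 0.103). Smad4, the shared partner, was at 11.88 and 12.06 (adjusted p = 0.11). Ep300, an acetyltransferase and co-activator, changed by -0.36 (adjusted p = 0.030). The call was lost when non-transgenic replicate 2, 7 or 8 or transgenic replicate 12 or 13 was left out (adjusted p from 0.0558 to 0.0808), and with each array centred on its median (adjusted p = 0.0792).

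Extracellular antagonists, convertases and latency proteins had 7 of 12 tested members higher and 0 lower in limma (8 and 0 at an unadjusted p below 0.05). At the adjusted threshold the shares were 58.3% and 0%, beside 18.9% and 18.3% of all genes tested. The 7 include Dcn, which is also given above as a marker of theca and stroma that rose. Sost encodes sclerostin, an antagonist best known for blocking Wnt signals in bone. It was at 5.63, 5.25, 5.56 and 4.69 in non-transgenic replicates 1, 2, 7 and 8 and from 7.31 to 8.37 in transgenic samples, at least 5.65-fold higher (adjusted p = 1.4e-05). Pcsk6, a convertase that cuts precursors of TGF-beta family ligands, rose by 1.95 from 7.38 to 9.33 (SE 0.18, adjusted p = 1.2e-05). Ltbp2, a matrix protein listed here by its family and not for a shown role in latency, rose by 0.76 (adjusted p = 0.00050). Furin, another convertase, rose by 0.32 (adjusted p = 0.040). Leaving out non-transgenic replicate 1 or 2 or transgenic replicate 4, 5, 6, 12 or 13 ended this call (adjusted p from 0.0534 to 0.111).

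Of 24 tested intracellular regulators of Smads and receptors, 4 rose and 3 fell. These shares, 16.7% and 12.5%, lay below the 18.9% and 18.3% of all genes tested. Usp4, which removes ubiquitin from the type I TGF-beta receptor, rose by 1.20 from 11.24 ± 0.09 (SD, n = 4) to 12.44 ± 0.14 (SD, n = 6) without overlap (limma adjusted p = 7.1e-07). Ctdsp2, a phosphatase that acts on Smads, rose by 0.68 (adjusted p = 0.0012) and Tob1, which binds Smads, by 0.58 (adjusted p = 0.0092). Tob2, its relative, rose by 0.34 (adjusted p = 0.014). With the Gapdh covariate the calls for Tob1 and Tob2 were lost (adjusted p = 0.0541 and 0.0663). Fkbp1a, which holds type I receptors inactive, was at 13.52 and 13.60 (adjusted p = 0.32).

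The 3 that fell were ubiquitin ligases. Stub1 changed by -0.36 (limma adjusted p = 0.0039). Smurf1, which marks Smad1 and Smad5 for degradation, changed by -0.41 (adjusted p = 0.021), a call lost when non-transgenic replicate 2, 7 or 8 was left out (adjusted p from 0.050 to 0.0658) and with each array centred on its median (adjusted p = 0.0774). Nedd4l changed by -0.58 (adjusted p = 0.039). The call was lost when non-transgenic replicate 1 or 8 or transgenic replicate 4, 5 or 6 was left out (adjusted p from 0.0557 to 0.110), with the Gapdh covariate (adjusted p = 0.0747) and with no filter (adjusted p = 0.0636).

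Of 19 tested response genes outside the 10, 6 rose and 0 fell in limma (7 and 0 at an unadjusted p below 0.05), and 13 did not pass. At the adjusted threshold the shares were 31.6% and 0%, beside 18.9% and 18.3% of all genes tested. Gata3, a transcription factor of trophoblast and T cells, was at 6.33, 6.32, 6.63 and 6.47 in non-transgenic replicates 1, 2, 7 and 8 and from 8.40 to 8.92 in transgenic samples. It rose by 2.25 (SE 0.12, adjusted p = 1.1e-07). Tal1, a bHLH factor of blood cells, was above the level only in non-transgenic replicate 1 (5.19) and ran from 7.00 to 7.87 in transgenic samples, at least 4.60-fold higher. Snai1, a repressor known from epithelial to mesenchymal transitions, did not reach the level in any control sample and ran from 5.63 to 6.40 in transgenic ones, at least 1.87-fold higher. Tsc22d1, the brightest of the list, was at 14.81 and 14.86 (adjusted p = 0.45), and Klf11 at 9.12 and 9.20 (adjusted p = 0.71).

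Among 10 tested bHLH partners of Id proteins and related factors, 3 rose and 1 fell. These shares were 30% and 10%, beside 18.9% and 18.3% of all genes tested. Tcf4 encodes an E protein, the class that Id proteins bind directly. It was at 5.52, 4.68, 5.19 and 5.51 in non-transgenic replicates 1, 2, 7 and 8 and from 6.64 to 7.59 in transgenic samples, at least 3.28-fold higher (limma adjusted p = 5.1e-05). Tcf12, a further E protein, rose by 0.70 (adjusted p = 0.0033), but with the mean of its probe sets the difference was 0.0028 (adjusted p = 0.991). Mesp2, a bHLH factor of early mesoderm, rose by 0.86 to 11.64 (adjusted p = 4.6e-05). Figla, the bHLH factor of oocytes that acts on the zona pellucida genes, changed by -0.54 from 9.17 to 8.62 (adjusted p = 0.015), a call lost without non-transgenic replicate 2 (adjusted p = 0.0513) or 7 (adjusted p = 0.0505).

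**Figure D4:**
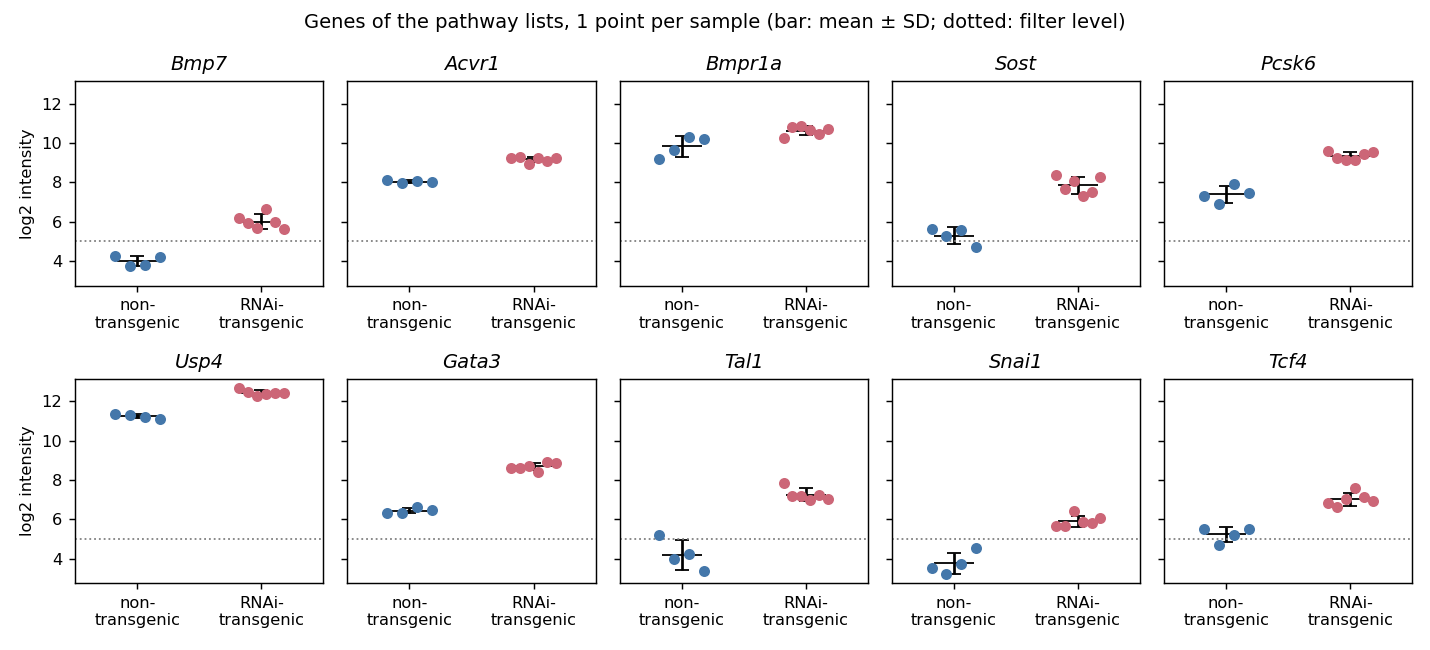
Log2 intensity of 10 genes of the pathway lists that rose, picked for the plot after their values were seen, with 1 point per sample, the mean and SD per group as bars, and log2 5 as a dotted line. For Bmpr1a the groups overlap, with non-transgenic samples from 9.16 to 10.30 and the lowest transgenic sample at 10.24, and for the other 9 genes they do not.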

How the data were processed

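The authors deposited 1 intensity per probe set and array, made with GCRMA per the submitters' processing notes, a method that corrects background, normalizes arrays and summarises probes. Its version is not given here. It pulls dim probe sets toward a floor, so folds of dim genes are uncertain. Values were put on the log2 scale. The platform annotation gave 34945 of 45101 probe sets 1 gene and 932 several, which were not used. Of the former, 34741 were found in RefSeq (GRCm38.p6), used for names and promoter windows.

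Probe sets above log2 5 in at least 4 arrays were kept, with the brightest representing a gene (10590 genes). Groups were compared with limma 3.58.1 (lmFit, eBayes with a trend) in R 4.3.3, adjusted by Benjamini-Hochberg at 0.05. The fit was tested on simulated data. The SE of a chosen gene's difference is from the spread in each group, without limma. Where samples of the dimmer group lay under log2 5 they were set to it, and the fold is given as at least that large. Level, filter, normalization, pseudocount, moderation, weights, probe set, number range, RNA length, threshold and each sample left out were varied.

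The 10 genes and the lists were chosen with earlier results of these data known. Named genes are the 10, Bnc1, in each pathway list up to 3 higher and 3 lower by adjusted p and the 2 brightest, and the 3 brightest of each marker list, of which the text gives some. The number of arrays limits the precision. Figures used matplotlib 3.10.9.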

Additional observations from a re-analysis of the deposited data

Results flagged for a closer look

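Of 98 groups of sample values screened (the 10 genes, Bnc1 and the named pathway genes, in either group), 5 held a sample whose gap to its nearest neighbour, as a share of the group's range, passed Dixon's 95% critical value, which chance alone passes in about 1 group in 20. Id3 in non-transgenic replicate 8 stood at log2 5.22, above the other non-transgenic samples at 4.46 to 4.52. Bmp5 in non-transgenic replicate 7 stood at 12.11, Jund in non-transgenic replicate 1 at 8.90, Figla in non-transgenic replicate 1 at 8.62 and Tal1 in transgenic replicate 4 at 7.87.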

How the results depend on the processing

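No paired analysis was possible because the groups share no replicate number. The Bnc1 difference ran from -7.80 to -7.66 with each sample left out and kept its call under all 23 alternatives. Among the 10 genes, Id1 and Smad5 moved by less than the spread between samples under every alternative tried. With log2(value + 16) the difference was 2.72 for Id2, 2.82 for Id3, 1.62 for Id4 and 2.10 for Tgif1. With probe sets of a gene averaged it was 1.85 for Id2, 1.27 for Id4 and 0.94 for Smad7. The second brightest probe set gave 2.53 for Id2, 0.71 for Id4, 1.30 for Smad7, -0.033 for Skil and 1.17 for Smad1. With values under log2 5 set to it, it was 0.88 for Id4, 2.28 for Tgif1 and 0.11 for Skil. Tgif1 gave 2.93 within samples 1 to 6 and 2.48 within samples 7 to 13. Its non-transgenic values all lie under log2 5, so nothing is read from these sizes. Smad6, not measurable, gave 0.0090 after quantile normalization, 0.0098 after median centring, -0.062 within samples 1 to 6 and 0.0067 within samples 7 to 13. The cause was not tested.

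With each sample left out, the pathway genes that rose numbered 26 to 33 and those that fell 4 to 8, and over all genes 1778 to 1954 rose and 1564 to 1913 fell. Within samples 1 to 6 alone, with fewer samples, 19 pathway genes rose and 1 fell, and 1207 and 706 over all genes. Within samples 7 to 13, 17 and 5 passed, and 1241 and 1023 over all genes. Median centring left 4 pathway genes that fell. At an adjusted p below 0.01, 3 pathway genes and 1102 genes in all fell. At 0.05 and at least 2-fold, 13 pathway genes rose and 0 fell, and 702 and 249 over all genes. Of the named pathway genes, Bmpr2, Smad3, Furin and Nedd4l lost their calls with no filter (adjusted p from 0.0504 to 0.0642), Smad3, Furin and Nedd4l with array weights, and Smad3 without a trend. Centring on the median ended those of Bmp6, Bmpr2, Ep300, Smurf1 and Furin. The Gapdh covariate ended those of Bmp5, Acvr1b, Bmpr2, Tgif2, Ep300, Furin, Tob1, Tob2 and Nedd4l. Averaged probe sets ended those of Bmp5, Rgmb, Bmpr1a, Bmpr2, Smad3 and Tcf12 and gave one for Fkbp1a (adjusted p = 0.0227), and the number range as a covariate changed the call of 1 named gene, Bmp15. No named gene that passed changed direction under these alternatives. Values under log2 5, a level chosen here, were taken as not measurable, so no change is read from Id1, Smad6 and most Skil values.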
